A study of Homo sapiens with 13 samples.

Results

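The genes described here pulsed at 4 h in human embryonic stem cells given BMP4. Their RNA was highest 4 h after treatment and lower at every later time measured. They were chosen by a rule on measured values of the time series. A gene had to average 1 CPM or more across the 6 times (CPM, counts scaled to a fixed library total). At 4 h it had to be at least 2 times its level at 0 h and at least 1.5 times its level at each of 12, 20, 28 and 42 h. Of 15982 genes with enough counts, 126 met the rule, which is 0.788%. Another 915 genes were also at least 2 times 0 h at 4 h but failed the condition on the later times. The pulsing genes, called members here, thus made up 12.1% of the 1041 genes that were up at 4 h. Since the time series chose the members, its values are given below as a description with no test, and the independent measurement is a dose response in other cultures.

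All libraries came from RUES2 human embryonic stem cells that carry a GFP::SMAD4 fusion, a fluorescent tag on the SMAD shared by BMP and Nodal signaling, so no group lacks the tag. In the time series 0 h was sequenced as 2 libraries and 4, 12, 20, 28 and 42 h as 1 apiece, with 100 ng/mL BMP4 and 5 µM IWP2, a blocker of Wnt secretion, in medium with ROCK inhibitor. The labels name the same treatment for the 0 h libraries, which were read here as cells taken when treatment began. The dose response at 5 h held 1 library each at 0, 10, 30, 100 and 300 nM LDN (LDN-193189, which blocks the kinase of BMP type I receptors), all with the same BMP4 and IWP2, and 1 library of untreated cells in mTeSR medium. RNA was depleted of ribosomal RNA for the time series and selected for polyA tails for the dose response, which also used another extraction kit. Only 0 h was measured in more than 1 library, and nothing states that these were separate cultures.

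When BMP binds its receptors, they phosphorylate SMAD1, SMAD5 and SMAD9, which join SMAD4, enter the nucleus and switch genes on or off. Some targets, such as the ID genes and the inhibitory SMADs, follow the signal for as long as it lasts, while others are held back again by feedback or by the decay of their RNA. In pluripotent cells BMP works beside FGF, which signals through ERK, and Nodal, which signals through SMAD2 and SMAD3, and with Wnt blocked it leads cells towards an amnion-like fate.

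Library totals ranged from 37957385 to 71333471 counts in the time series and from 15600931 to 33989998 in the dose response, with the untreated library the shallowest. Mitochondrial genes took 7.60% of the counts in 0 h replicate 1 and 7.89% in the untreated library, against 2.01% to 4.49% in the other 11 libraries. A count of 3, used as the floor, corresponded to 0.0421 to 0.192 CPM, and the intervals and floors given here cover counting error only. The cells matched their label: all 8 pluripotency markers were expressed, together at 7788 CPM at 0 h, 7359 CPM at 4 h and 6667 to 7896 CPM in the dose response. Markers of other cells were mixed. TBXT stayed at or below 0.294 CPM, SOX17 was at 0.0561 to 0.0883 CPM up to 4 h and DCN had at most 0.0221 CPM in any library, but from the same lists KDR had 60.45 to 68.2 CPM and COL1A1 154 to 209 CPM up to 4 h. FOXA2 had 3.19 and 2.92 CPM at 0 h and 0.154 CPM at 4 h, and GATA6 and GATA4 had at most 0.184 and 0.0981 CPM at 0 h and 2.69 and 1.28 CPM at 4 h. Their part in the members' values was not tested. None of the 126 genes is on the lists of pluripotency, amnion, trophoblast, primitive streak and mesoderm, endoderm, neural or fibroblast and feeder markers. Members are 0.788% of all genes, so no conclusion is drawn from their absence from such short lists. The summed level of the 8 amnion markers went from 29.0 CPM at 0 h to 168 CPM at 4 h and 6507 CPM at its highest.

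Across the 126 genes the median level was 1.49 CPM at 0 h, 5.26 CPM at 4 h, 2.25 CPM at 12 h, 1.66 CPM at 20 h, 1.35 CPM at 28 h and 0.646 CPM at 42 h. The ratio of 4 h to 0 h had a median of 2.73 and ran from 2.0 to 94.8, and the ratio of 4 h to the highest later time had a median of 1.75 and ran from 1.502 to 12.1. The way down was gradual for most of them. The highest of the later levels was at 12 h for 102 genes, at 20 h for 14, at 28 h for 8 and at 42 h for 2, and 78 genes were lower at each time than at the one before from 4 h to 42 h. At 12 h 17 genes were already below their 0 h level.

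Most members ended below where they started. At 42 h 115 of the 126 were below 0 h and 11 above it, and 77 (61.1%) had less than 0.5 times their 0 h level. Among all genes that the rule was applied to, 20.1% were that low at 42 h. The rule limited how high a member could be at 42 h relative to its peak, and no such limit held for all genes. The contrast between these shares is thus partly set by the choice of members and is given as a description. No untreated cells were followed past 0 h, so time in culture and treatment cannot be told apart in these values.

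**Figure D1:**
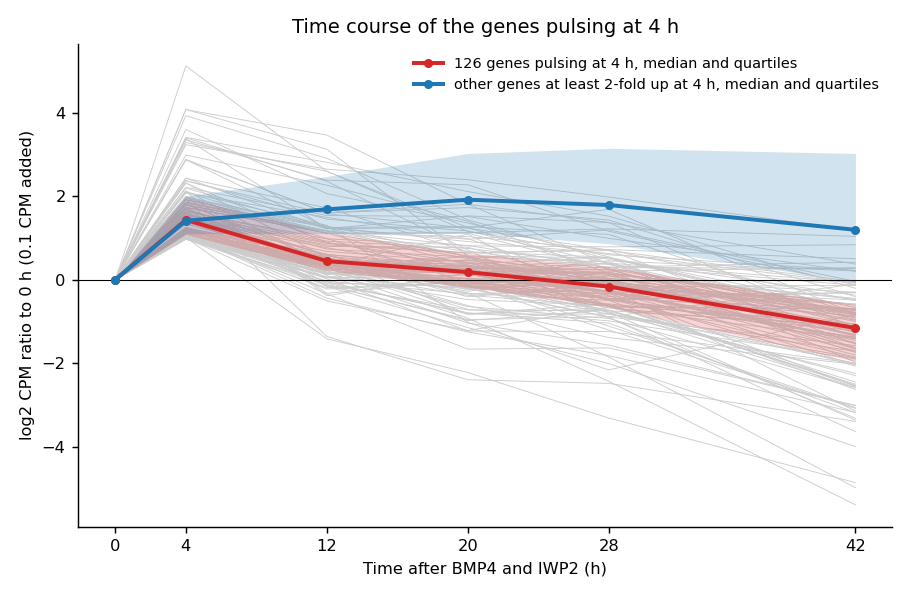
Levels of the 126 genes over time, as the log2 ratio of each time to 0 h with 0.1 CPM added to both (vertical axis) against hours after BMP4 and IWP2 (horizontal axis). Grey lines are single genes, and the thick lines with bands are medians and quartiles of the 126 genes (red) and of the 915 other genes that were at least 2-fold up at 4 h (blue). The red median goes from 1.43 at 4 h to −1.16 at 42 h, and the blue one from 1.41 to 1.19.

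The medians of both sets of genes that were up at 4 h started alike and then parted, as the rule required. Ratios to 0 h were taken on the log2 scale with 0.1 CPM added. At 4 h the median was 1.43 for the pulsing genes and 1.41 for the other 915 genes. At 20 h the medians were 0.18 and 1.91, and at 42 h −1.16 and 1.19.

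The precision of these ratios can be described but, since the rule used them, not tested. The 4 h counts ran from 85 to 18005 per gene, and the 95% exact counting interval of the ratio of 4 h to the highest later time lay wholly above the threshold of 1.5 for 58 of the 126 genes. The 0 h libraries differed from each other by a median of 0.38 on the log2 scale over the 126 genes, against 0.26 over all genes. The 4 h level reached 2 times the higher of the 0 h libraries for 87 of the 126. With 1 of the 0 h libraries left out, the rule took 162 genes without replicate 1 and 100 without replicate 2. With TMM factors in place of library totals it took 85 genes, all among the 126.

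Just inside the threshold on the rise were RRAGD, a small GTPase that acts in amino acid sensing, at 2.0 times 0 h, and EFNA2 at 2.01 times, and just outside it were LINC01569 at 1.996 times and ENSG00000266976 at 1.997 times. On the threshold against later times the nearest members were EFNA2 at 1.502 and EMILIN3 at 1.505 times the highest later level, and the nearest non-members were ENSG00000286149 and PDE4C, both at 1.499 times.

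The 10 sharpest pulses, by the ratio of 4 h to the highest of the other times among members with at least 5 CPM at 4 h, were led by a pair of transcription factors. ZNF536 (chr19:30224891-30713586, plus strand, positions from GENCODE 44 on GRCh38 here and below), a zinc finger protein known as a repressor in neuronal differentiation, had 0 and 0.112 CPM in the 0 h libraries, 5.32 CPM at 4 h and then 0.842, 0.248, 0.135 and 0.0817 CPM at 12, 20, 28 and 42 h. The zero in replicate 1 allows up to 0.0790 CPM there, so the ratio of 94.8 between 4 h and 0 h rests on 241 counts at 4 h against very few at 0 h. LMX1B (chr9:126613928-126701032, plus strand), a LIM homeobox factor of limb and neuron development, had 0.448 and 0.435 CPM in the 0 h libraries, 5.52 CPM at 4 h and then 1.17, 0.957, 1.13 and 0.425 CPM at 12, 20, 28 and 42 h.

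Both genes were thus low before treatment, lost most of the 4 h level by 12 h and stayed above both 0 h libraries until 28 h. Next came ELFN1 and ELFN2, transmembrane proteins with leucine-rich repeats that act at synapses. ELFN1 (chr7:1665745-1747946, plus strand) had 3.98 and 3.04 CPM in the 0 h libraries, 14.2 CPM at 4 h and then 2.78, 3.45, 2.29 and 0.523 CPM at 12, 20, 28 and 42 h. ELFN2 (chr22:37367960-37427479, minus strand) had 1.98 and 1.72 CPM in the 0 h libraries, 6.18 CPM at 4 h and then 1.74, 1.02, 0.846 and 0.114 CPM at 12, 20, 28 and 42 h. In both, 12 h was no higher than the higher of the 0 h libraries, and 42 h was below both 0 h libraries.

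Channel subunits and membrane proteins followed. KCNJ4 (chr22:38426327-38455199, minus strand), an inwardly rectifying potassium channel, had 0.764 and 0.491 CPM in the 0 h libraries, 5.23 CPM at 4 h and then 1.63, 1.65, 1.44 and 0.310 CPM at 12, 20, 28 and 42 h. KCNF1 (chr2:10911934-10914225, plus strand), a modifier subunit of voltage-gated potassium channels, had 1.55 and 3.01 CPM in the 0 h libraries, 7.19 CPM at 4 h and then 2.02, 0.974, 0.491 and 0.0490 CPM at 12, 20, 28 and 42 h. TMEM151A (chr11:66291894-66296664, plus strand), a transmembrane protein, had 1.45 and 1.86 CPM in the 0 h libraries, 6.07 CPM at 4 h and then 2.26, 1.90, 1.42 and 0.0980 CPM at 12, 20, 28 and 42 h. KCNJ4 stayed above both 0 h libraries until 28 h, whereas KCNF1 at 12 h lay between its 0 h libraries, which differed by more than those of KCNJ4 and TMEM151A.

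C1QL3 (chr10:16513734-16521879, minus strand), a secreted protein of the C1q family that acts at synapses, had 2.06 and 1.75 CPM in the 0 h libraries, 6.53 CPM at 4 h and then 2.04, 0.875, 0.576 and 0.147 CPM at 12, 20, 28 and 42 h. ZNF469 (chr16:88382959-88440757, plus strand), a zinc finger protein tied to the collagen matrix of the cornea, had 10.6 and 8.06 CPM in the 0 h libraries, 25.4 CPM at 4 h and then 9.66, 7.99, 4.92 and 0.654 CPM at 12, 20, 28 and 42 h. RNF128 (chrX:106693794-106797016, plus strand), a membrane-bound ubiquitin ligase, had 2.63 and 3.24 CPM in the 0 h libraries, 7.06 CPM at 4 h and then 2.69, 1.73, 1.71 and 1.31 CPM at 12, 20, 28 and 42 h. For these 3 genes the 12 h level lay between the 0 h libraries and the 42 h level below both.

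**Figure D2:**
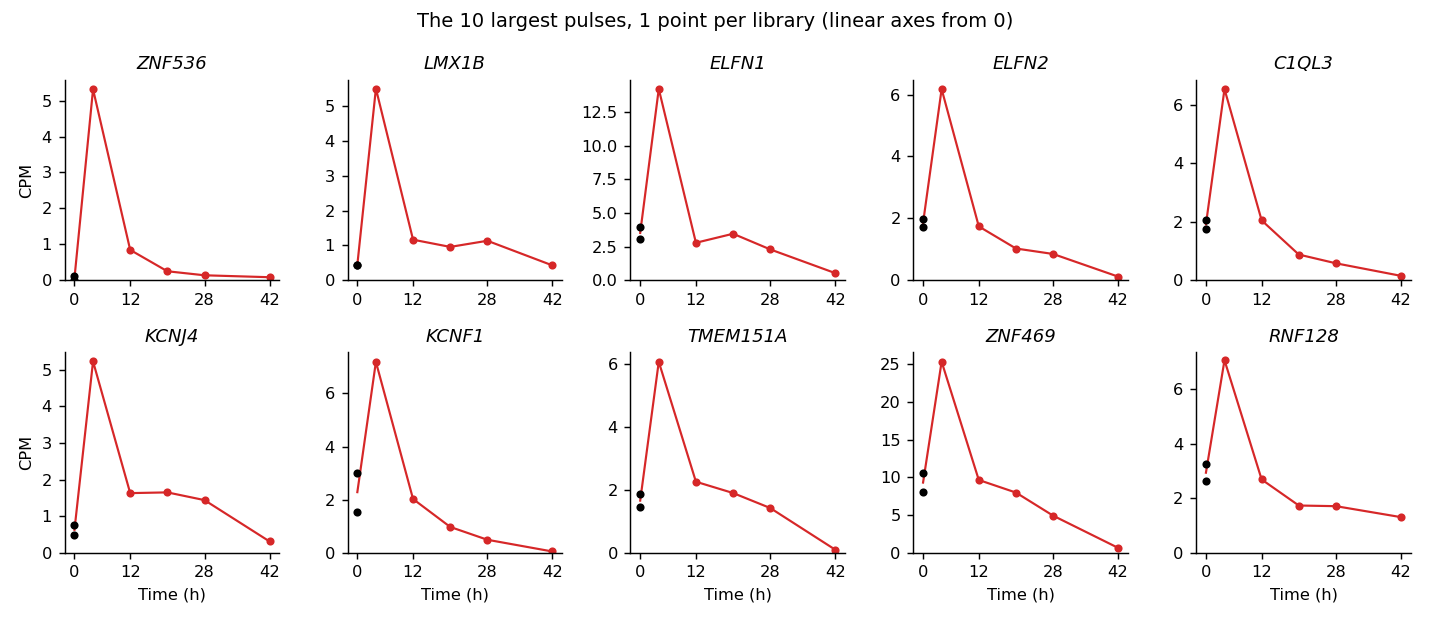
CPM over time for the 10 sharpest pulses, with linear vertical axes from 0 and hours after BMP4 and IWP2 on the horizontal axes. Black points are the 2 libraries at 0 h, red points are the single libraries at the later times, and the line starts at the 0 h mean. In each panel the 4 h point is the highest, and 42 h lies below the lower 0 h library in 9 of the 10 genes, ZNF536 being the exception.

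The dose response asked whether the level of these genes at 5 h changed with the dose of LDN. It held no other time, so it cannot show a pulse. Of the 126 genes, 67 averaged 1 CPM or more in the 5 libraries with BMP4 and were tested with edgeR's quasi-likelihood test for a linear trend over the LDN steps, with Benjamini-Hochberg adjustment over the 14907 genes of that mean. Because this minimum is set on the same 5 libraries, it kept members that were high at some dose, and the 67 do not stand for the 126. Of the 67 genes 29 (43.3%) fell with LDN, 1 (1.49%) rose and 37 had no call. Over all genes tested, 10.9% fell and 10.4% rose, and among the 623 tested genes that were also up at 4 h but did not pulse, 75% fell. The median slope, the log2 change per LDN step, was −0.13 for the 67 genes, −0.25 for the 623 and about 0 (−0.00068) for all 14907.

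At an unadjusted p under 0.05 in the same edgeR test, 35 of the 67 had a falling slope and 2 a rising one. The share over all genes at this threshold is not given here, so these counts are not compared with it. The level was lower at each higher dose in 18 of the 67, where 7.9% of all genes tested showed such an order, and 15 of these 18 were among the 29. No dose had a replicate, so the error is the scatter of the 5 libraries about the line, and whether the shares of the pulsing and the other genes differ was not tested.

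**Figure D3:**
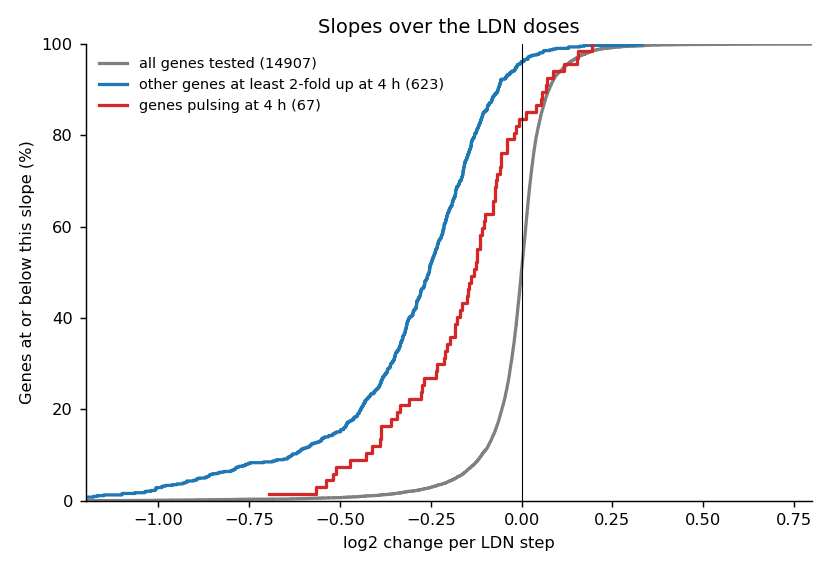
Cumulative share of genes (vertical axis, percent) at or below each slope, the log2 change per LDN step (horizontal axis), for the 67 pulsing genes tested (red), the 623 other genes at least 2-fold up at 4 h (blue) and all 14907 genes tested (grey). The red curve lies between the blue and the grey over most of the range, with medians of −0.13, −0.25 and −0.00068.

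Without LDN, the same genes could also be compared with untreated cells, with 1 library each and no test. The untreated cells had neither BMP4 nor IWP2, so BMP4 and IWP2 cannot be told apart in ratios to untreated. With 0.1 CPM added to both, 26 of the 67 (38.8%) were at least 2-fold above untreated, where 6.4% of all genes tested and 70% of the 623 other genes were. The median ratio over the 67 was 1.72, with 56 above untreated and 11 below. Of the 26 genes, 17 were among the 29 that fell with LDN, and 9 had no call. At 300 nM LDN 12 of the 67 were still at least 2-fold above untreated, against 2.4% of all genes tested. The untreated library was the shallowest and had 7.89% mitochondrial counts against 4.22% without LDN, and the part of this in the ratios was not tested.

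The counts in the dose response differed with the size of the 4 h rise, a difference that was not tested. Among members at 2 to 2.5 times 0 h at 4 h, 27 of 57 were tested, 7 fell with LDN and 7 were at least 2-fold above untreated. Among those at 2.5 to 4 times, 21 of 35 were tested, with 9 and 4 such genes. Among those at 4 times or more, 19 of 34 were tested, 13 fell with LDN and 15 were at least 2-fold above untreated. Over all genes tested these shares were 10.9% and 6.4%. Over the 623 other genes up at 4 h, not split by the size of the rise, they were 75% and 70%.

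**Figure D4:**
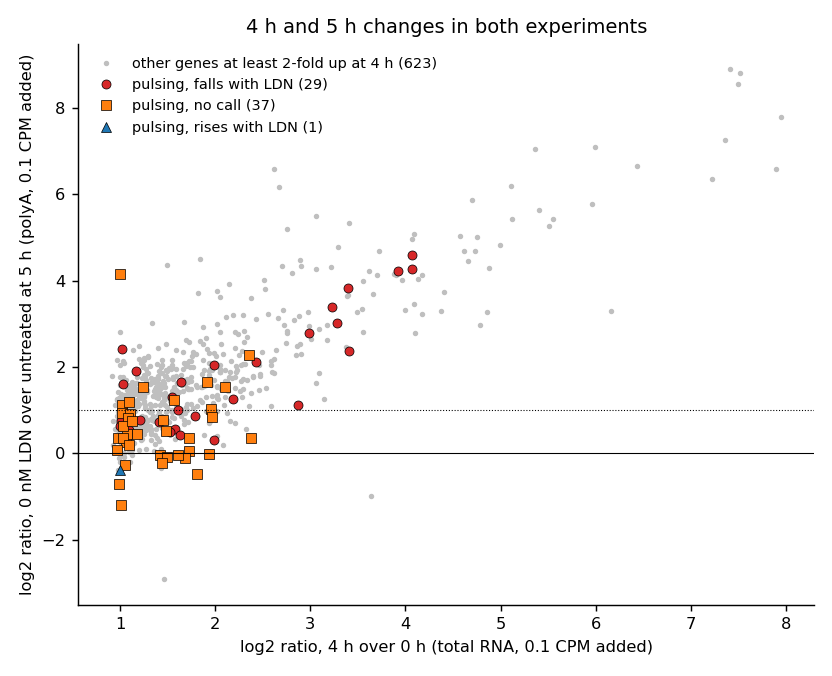
The log2 ratio of 0 nM LDN to untreated at 5 h (vertical axis, polyA libraries) against the log2 ratio of 4 h to 0 h (horizontal axis, total RNA libraries), both with 0.1 CPM added. Coloured symbols are the 67 pulsing genes tested, of which 29 fell with LDN, 37 had no call and 1 rose, grey points are the 623 other genes at least 2-fold up at 4 h, and the dotted line marks 2-fold. Many pulsing genes near the left edge lie at or close to 0 on the vertical axis, while those with the largest 4 h rises are high in both.

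The 8 members with the largest fall per LDN step included signaling ligands, a coreceptor and a homeobox factor. CFC1 (chr2:130592165-130599575, minus strand), also called Cryptic, is an EGF-CFC coreceptor that lets Nodal bind its receptors. It had 0.553 and 0.925 CPM in the 0 h libraries, 14.0 CPM at 4 h and then 9.14, 2.84, 0.982 and 0.294 CPM at 12, 20, 28 and 42 h. In the dose response it had 11.7, 8.503, 5.66, 3.44 and 1.33 CPM from 0 to 300 nM LDN and 0.513 CPM in untreated cells. It was lower at each higher dose, with a slope of −0.69 ± 0.059 (SE) log2 units per step (edgeR's quasi-likelihood test, Benjamini-Hochberg adjusted p = 4.16e-06), and the level at 300 nM was still above untreated. CFC1 has the near-identical copy CFC1B, so the share of reads that belongs to each is uncertain.

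INHBB (chr2:120346136-120351803, plus strand) encodes the beta B chain of activin B and inhibin B, ligands of the TGF-beta family. It had 0.764 and 0.813 CPM in the 0 h libraries, 6.93 CPM at 4 h and then 4.16, 2.24, 0.880 and 0.180 CPM at 12, 20, 28 and 42 h. It had 4.59, 3.83, 2.86, 1.61 and 0.875 CPM from 0 to 300 nM LDN and 0.577 CPM in untreated cells, lower at each higher dose, and fell by a slope of −0.56 ± 0.072 (SE) per step with an edgeR adjusted p of 0.000118. FGF4 (chr11:69771022-69775341, minus strand) is an FGF ligand made by pluripotent cells. It had 1.61 and 1.82 CPM in the 0 h libraries, 19.0 CPM at 4 h and then 9.17, 2.87, 0.863 and 0.0817 CPM at 12, 20, 28 and 42 h, so that by 28 h it was below both 0 h libraries.

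In the dose response FGF4 had 15.0, 13.7, 12.3, 7.40 and 4.10 CPM from 0 to 300 nM LDN and 0.962 CPM in untreated cells. The level was lower at each higher dose, with a slope of −0.43 ± 0.059 (SE) and an edgeR adjusted p of 0.000246. Without LDN it was 15.6 times untreated, with a 95% counting interval of 9.37 to 28.2, and at 300 nM it was still above it. FGF4 was the only member on a list of 25 genes of ERK signaling and its feedback, of which 23 were tested with LDN, 5 fell and 6 rose.

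HHEX (chr10:92689955-92695647, plus strand) is a homeobox factor of early endoderm and blood development. It had 0.316 and 0.379 CPM in the 0 h libraries, 7.43 CPM at 4 h and then 3.80, 0.561, 0.542 and 0.147 CPM at 12, 20, 28 and 42 h. In the dose response the 3 lowest doses had similar levels and the higher doses lower ones, at 6.99, 7.74, 7.59, 3.86 and 1.99 CPM from 0 to 300 nM LDN and 0.192 CPM in untreated cells. The slope was −0.41 ± 0.094 (SE) with an edgeR adjusted p of 0.00763, and without the library at 300 nM it was −0.22 with an adjusted p of 0.127, so this call rests on the highest dose. Untreated cells had 3 counts, and 0 nM LDN was 36.4 times that level with a 95% counting interval of 12.3 to 178.

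EMILIN3 (chr20:41359962-41366818, minus strand) is an extracellular matrix glycoprotein. It had 3.003 and 4.98 CPM in the 0 h libraries, 38.3 CPM at 4 h and then 25.5, 21.4, 16.0 and 9.18 CPM at 12, 20, 28 and 42 h, so it stayed above both 0 h libraries throughout. It had 25.6, 20.3, 14.4, 9.20 and 5.97 CPM from 0 to 300 nM LDN and 2.37 CPM in untreated cells, and its fall of −0.52 ± 0.031 (SE) per step had the smallest adjusted p of the 67 genes (2.26e-07, edgeR). It overlaps LPIN3 on the other strand. SLC24A4 (chr14:92322581-92501481, plus strand), a potassium-dependent sodium and calcium exchanger, had 0.553 and 0.687 CPM in the 0 h libraries, 7.52 CPM at 4 h and then 4.95, 3.004, 1.96 and 0.523 CPM at 12, 20, 28 and 42 h. It had 3.06, 2.38, 1.38, 1.45 and 0.724 CPM from 0 to 300 nM LDN and 0.513 CPM in untreated cells, and its slope was −0.47 ± 0.078 (SE) with an edgeR adjusted p of 0.000913, and its 30 and 100 nM levels were not in order.

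A pair of long noncoding RNAs completed the 8. ENSG00000258525 (chr14:30876179-30889808, minus strand), which lies across COCH on the opposite strand, had 0.501 and 0.364 CPM in the 0 h libraries, 7.99 CPM at 4 h and then 3.89, 1.34, 0.643 and 0.310 CPM at 12, 20, 28 and 42 h. It had 5.32, 4.74, 2.77, 2.44 and 0.996 CPM from 0 to 300 nM LDN and 0.192 CPM in untreated cells, a slope of −0.54 ± 0.074 (SE) and an edgeR adjusted p of 0.000228. ENSG00000279249 (chr16:49282021-49350504, plus strand) had 1.16 and 0.617 CPM in the 0 h libraries, 9.51 CPM at 4 h and then 5.86, 2.24, 1.07 and 0.310 CPM at 12, 20, 28 and 42 h. It had 4.31, 3.41, 2.52, 1.61 and 0.996 CPM from 0 to 300 nM LDN and 0.449 CPM in untreated cells, and its slope was −0.51 ± 0.063 (SE) with an edgeR adjusted p of 9.41e-05. Both RNAs were thus lower at each higher dose, and both had fewer than 10 counts in untreated cells.

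**Figure D5:**
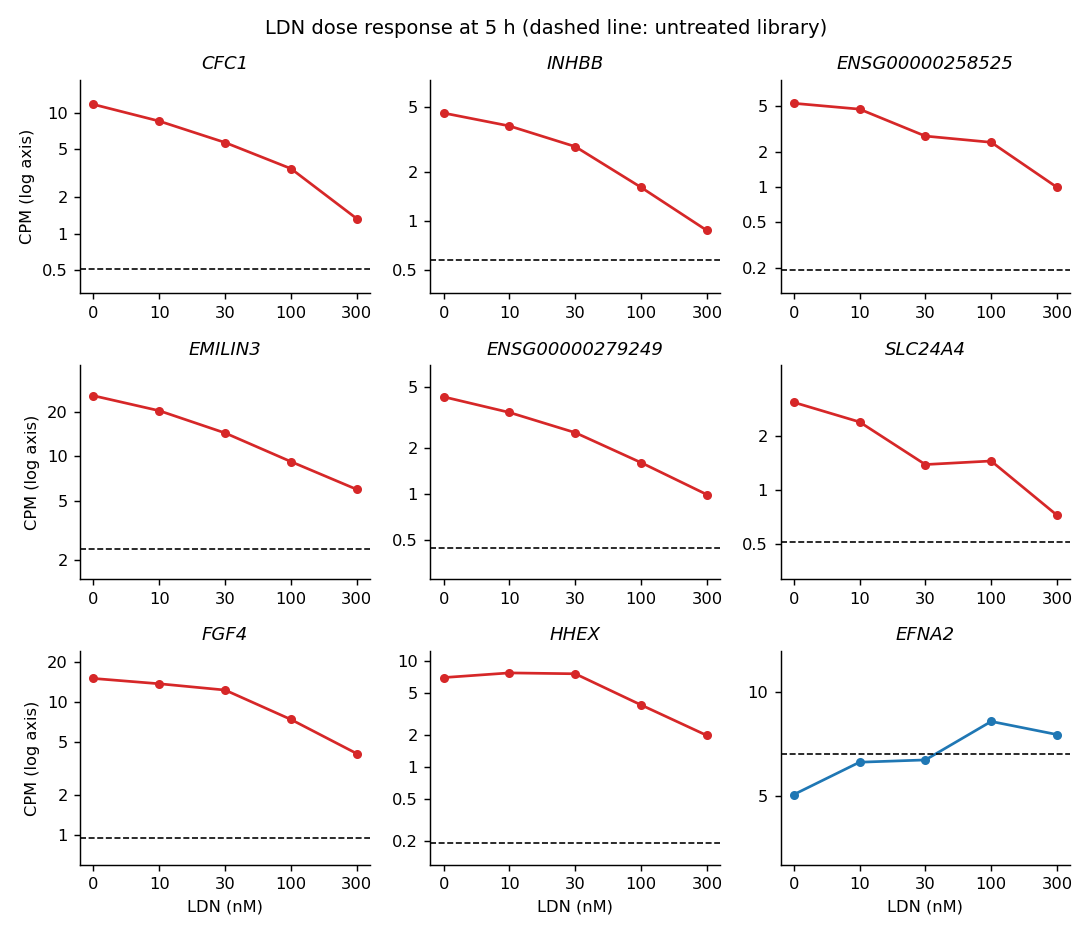
CPM at 5 h on log axes against LDN dose in nM for the 8 members with the largest fall per LDN step (red) and for EFNA2, the member that rose (blue). Each point is 1 library, and the dashed line is the untreated library. The red profiles end at 300 nM above the dashed line, and the EFNA2 profile crosses it. For several genes the dashed line rests on few counts, and the gap to it was not tested.

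Among the 29 genes that fell, 23 are protein coding, the 4 h level had a median of 14.1 CPM and the ratio of 4 h to 0 h a median of 3.14 (2.0 to 21.4). In the 37 genes with no call these medians were 6.60 CPM and 2.40 (2.02 to 5.34), and 30 are protein coding. The mean level over the 5 doses was also higher in the genes that fell, with a median of 4.70 CPM against 2.33 CPM, and its part in the calls was not tested. Of the 29, 12 were under 2-fold above untreated.

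On the CPM scale, which is not corrected for length, 3 members reached 100 CPM at 4 h, and they are named here after their values were seen. MIAT, a long noncoding RNA first known from its link to myocardial infarction, had 172 and 128 CPM in the 0 h libraries, 397 CPM at 4 h and then 169.5, 78.9, 27.6 and 3.46 CPM at 12, 20, 28 and 42 h. It had 258, 192, 165, 153 and 140.2 CPM from 0 to 300 nM LDN and 156 CPM in untreated cells, and its slope was −0.21 ± 0.020 (SE) with an edgeR adjusted p of 1.36e-05. At 100 and 300 nM LDN it was below untreated. ZMIZ1, a coactivator of transcription, had 146 and 102 CPM in the 0 h libraries, 383 CPM at 4 h and then 244, 218, 151 and 149 CPM at 12, 20, 28 and 42 h. Its dose response was 142, 144, 128, 109.8 and 96.8 CPM from 0 to 300 nM LDN and 105 CPM in untreated cells, and its slope was −0.14 ± 0.018 (SE) with an adjusted p of 7.80e-05 in edgeR. FZD8, a Frizzled receptor for Wnt, had 26.9 and 32.4 CPM in the 0 h libraries, 112 CPM at 4 h and then 67.1, 47.2, 36.5 and 39.6 CPM at 12, 20, 28 and 42 h.

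FZD8 and 4 others stood highest above untreated among the genes without a call, and were likewise picked after their values were seen. FZD8 had 47.3, 55.8, 51.1, 49.6 and 37.7 CPM from 0 to 300 nM LDN and 14.9 CPM in untreated cells, at least 2.5 times untreated at every dose, and its slope of −0.08 ± 0.034 (SE) had an edgeR adjusted p of 0.126. Its call depended on the setting: it fell without the library at 0 nM LDN (slope −0.17, adjusted p = 0.00106) and with no filter on low counts (adjusted p = 0.0296), while without the library at 300 nM the slope was 0.0098 (adjusted p = 0.873). PDE4B, a phosphodiesterase that degrades cyclic AMP, had 25.1, 27.9, 27.5, 26.3 and 20.8 CPM from 0 to 300 nM LDN and 8.59 CPM in untreated cells and an adjusted p of 0.228 in edgeR, which became 0.0226 (slope −0.13) without the library at 0 nM and 0.720 (slope 0.02) without the library at 300 nM.

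C1QL2, a secreted C1q family protein, had 7.24, 7.86, 8.55, 7.62 and 4.98 CPM from 0 to 300 nM LDN and 1.41 CPM in untreated cells, with no call in edgeR (adjusted p = 0.240). RNF128 had 7.58, 7.86, 9.65, 8.94 and 6.58 CPM from 0 to 300 nM LDN and 2.56 CPM in untreated cells, and its slope of −0.02 ± 0.051 (SE) had an edgeR adjusted p of 0.858. These 4 genes had their highest level at 10 or 30 nM LDN and their lowest with BMP4 at 300 nM, where each was still above untreated. Without the library at 300 nM the slopes of C1QL2 and RNF128 were 0.04 and 0.11, also with no call. ENSG00000249240, a protein coding locus that overlaps ANKDD1A and PLEKHO2 on the same strand, had 0 counts in untreated cells and 1.67, 2.41, 2.71, 3.31 and 2.87 CPM from 0 to 300 nM LDN. Without LDN it was at least 8.68-fold higher than the floor of 3 counts in untreated cells, and its rising slope missed the threshold (edgeR adjusted p = 0.0626) but passed it without the library at 300 nM (slope 0.31, adjusted p = 0.0309). With the untreated library added as a further step its slope was −0.07 (adjusted p = 0.845).

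EFNA2 (chr19:1285873-1301431, plus strand), a membrane-anchored ephrin ligand of Eph receptors, was the member that rose with LDN. It had 5.24 and 7.47 CPM in the 0 h libraries, 12.8 CPM at 4 h and then 8.49, 7.18, 5.55 and 4.49 CPM at 12, 20, 28 and 42 h. In the dose response it had 5.04, 6.27, 6.36, 8.23 and 7.54 CPM from 0 to 300 nM LDN and 6.60 CPM in untreated cells, a slope of 0.16 ± 0.041 (SE) and an edgeR adjusted p of 0.0179. The 0 nM library was thus the lowest and lay below untreated, while in the time series 4 h lay above both 0 h libraries. The call was lost without the library at 0 nM (slope 0.12, adjusted p = 0.191) and without that at 100 nM (slope 0.13, adjusted p = 0.0544).

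Of 12 lists of pathway genes, 3 held any member, and members made up 0.788% of all genes that the rule was applied to. On the list of BMP targets and feedback genes, 28 of 39 expressed genes were at least 2 times 0 h at 4 h. In the dose response 23 of 31 tested fell and 1 rose. The list held 1 member, VENTX. VENTX (chr10:133237855-133241928, plus strand), a homeobox factor related to the frog Vent proteins, which are BMP targets, had 3.64 and 4.58 CPM in the 0 h libraries, 9.40 CPM at 4 h and then 3.73, 2.03, 2.44 and 0.605 CPM at 12, 20, 28 and 42 h. Its dose response was nearly flat at 7.76, 7.71, 8.88, 7.11 and 6.91 CPM from 0 to 300 nM LDN and 5.64 CPM in untreated cells, and its slope of −0.04 ± 0.040 (SE) had an edgeR adjusted p of 0.511. It was 1.38 times untreated without LDN, with a 95% counting interval of 1.07 to 1.78.

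The list of Notch genes held 2 members, the ligand JAG2 and the target HEYL. Of its 17 tested genes 4 fell with LDN and 8 rose. JAG2 (chr14:105140982-105168824, minus strand) had 6.56 and 8.52 CPM in the 0 h libraries, 22.6 CPM at 4 h and then 10.3, 6.80, 5.96 and 4.30 CPM at 12, 20, 28 and 42 h. It had 10.4, 9.86, 7.78, 7.33 and 7.69 CPM from 0 to 300 nM LDN and 6.92 CPM in untreated cells, and its slope was −0.13 ± 0.035 (SE) with an edgeR adjusted p of 0.0228. The call was lost without the library at 0, 10 or 100 nM LDN, with adjusted p from 0.0650 to 0.150, and JAG2 overlaps ENSG00000257622 and MIR6765 on the same strand. HEYL (chr1:39623435-39639643, minus strand), a repressor of the Hairy family, had 2.85 and 2.65 CPM in the 0 h libraries, 5.56 CPM at 4 h and then 1.90, 1.12, 1.69 and 0.605 CPM at 12, 20, 28 and 42 h.

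At 5 h HEYL had 2.02, 1.88, 2.49, 2.83 and 2.44 CPM from 0 to 300 nM LDN and 3.33 CPM in untreated cells, so that the library without LDN was below untreated, and its slope of 0.12 ± 0.066 (SE) had an edgeR adjusted p of 0.237. ELFN1, named above for its pulse, fell with LDN (2.82, 2.24, 2.27, 1.74 and 1.51 CPM from 0 to 300 nM LDN and 2.24 CPM in untreated cells, slope −0.21 ± 0.064 (SE), edgeR adjusted p = 0.0328), a call lost without the library at 0, 100 or 300 nM, with adjusted p from 0.0782 to 0.205, and ELFN1 overlaps ELFN1-AS1 on the other strand. Of the other sharp pulses, ELFN2, C1QL3, KCNF1, TMEM151A, ZNF469 and RNF128 were tested without a call, and KCNF1 fell only without the library at 0 nM (slope −0.41, adjusted p = 0.0252).

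No member is on the immediate early and AP-1 list: of its 26 expressed genes, 5 were at least 2 times 0 h at 4 h and none met the rule, and in the dose response 8 of 24 tested fell and 3 rose. The lists for Nodal and TGF-beta (2 of 16 expressed genes up at 4 h, 4 of 16 tested fell and 4 rose), Wnt (5 of 16 up, 4 of 13 fell and 4 rose), p53 (0 of 15 up, 2 of 15 fell and 2 rose) and stress (2 of 18 up, 3 of 18 fell and 6 rose) held no member. Nor did those for NF-kB and cytokines (3 of 13 up, 4 of 13 fell and 1 rose), SRF and YAP targets (0 of 14 up, 1 of 13 fell and 1 rose), the circadian clock (2 of 13 up, 2 of 13 fell and 2 rose) and neural crest and plate border (0 of 9 up, 1 of 8 fell and 2 rose). For comparison, 1041 of all 15982 genes were up at 4 h and 0.788% met the rule. With so small a share, no conclusion is drawn from short lists without a member. The list for Nodal and TGF-beta leaves out the members CFC1 and INHBB, and the Wnt list leaves out the member FZD8.

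The 59 members under 1 CPM in the dose response were also low at 4 h, at a median of 3.20 CPM (1.88 to 12.9), and 17 of them are protein coding against 54 of the 67 tested. None exceeded 1.81 CPM in any library of the dose response. The 3 with the highest 4 h level were ENSG00000251158, ENSG00000288349 and ENSG00000287258. ENSG00000251158, a pseudogene on chromosome 5 that overlaps GUSBP13 on the other strand, had 5.35 and 4.57 CPM in the 0 h libraries, 12.9 CPM at 4 h and then 7.97, 6.67, 4.77 and 1.93 CPM at 12, 20, 28 and 42 h, and at most 0.939 CPM in the dose response. ENSG00000288349, a pseudogene on the same chromosome that overlaps GUSBP16 on the other strand, had 2.503 and 2.85 CPM in the 0 h libraries, 8.78 CPM at 4 h and then 4.497, 3.93, 2.74 and 1.57 CPM at 12, 20, 28 and 42 h, and at most 0.905 CPM in the dose response. Both lie at GUSB pseudogenes, copies of one another that could share reads, so their separate levels are uncertain. ENSG00000287258, a long noncoding RNA antisense to PKIB, had 4.24 and 3.0 CPM in the 0 h libraries, 7.77 CPM at 4 h and then 4.57, 3.70, 2.94 and 1.31 CPM at 12, 20, 28 and 42 h, and at most 0.104 CPM in the dose response.

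The 2 sharpest pulses were in this group too. ZNF536 had 0.905, 0.471, 0.246, 0.161 and 0.0302 CPM from 0 to 300 nM LDN and 0 counts in untreated cells, which allows 0.192 CPM, and without LDN it was at least 4.70-fold higher than that floor. LMX1B had 0.557, 0.530, 0.523, 0.450 and 0.332 CPM at these doses and 0.0641 CPM, 1 count, in untreated cells. KCNJ4 was under the minimum as well, at 0.765, 0.853, 0.645, 0.708 and 0.633 CPM from 0 to 300 nM LDN and 0.577 CPM in untreated cells. ZNF536 and LMX1B were lower at each higher dose and KCNJ4 was not. The main fit did not test them, and only the alternative with no filter on low counts did, whose values for them are not given here.

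Levels in the polyA and total RNA libraries were also set side by side. With 0.1 CPM added, the median log2 ratio of the 5 h library without LDN to the 4 h library was −1.60 for the 126 genes, −0.59 for the 915 other genes up at 4 h and −0.11 for all 15982. For untreated cells against 0 h, these medians were −0.91, −0.37 and −0.12. The rule chose members for a high 4 h and a low 0 h level, so both ratios are partly set by the choice and are given as a description. The hour between 4 and 5 h, the RNA selection and the extraction kit cannot be told apart in the first ratio.

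By annotation, 71 of the 126 (56.3%) are protein coding, 31 are long noncoding RNAs, 18 are pseudogenes of several kinds and 6 are transcripts still to be experimentally classified. Of the 915 other genes up at 4 h 76.2% are protein coding, and of all genes 85.6%. The members have a median of 3 exons against 5 and 7. Their median GC content was 55.0%, near the 55.4% of the other genes up at 4 h and above the 48.6% of all genes, and 40 members (31.7%) reached 60% GC against 15.1% of all genes. GC content also went with differences between libraries: Spearman's rho across the 15959 genes with a value, which are not independent, was 0.18 for the ratio of 4 h to 0 h and 0.50 for the ratio of the 0 h replicates. With the median ratio to 0 h set to 0 within bins of GC content, a step added after seeing the data, the rule took 97 genes, of which 92 were among the 126 and 22 of these 92 fell with LDN.

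Position matters for how these levels can be read. By GENCODE 44, 96 of the 126 genes overlap another gene, 42 on the same strand and 77 on the other. The share over all genes is not given here, so these counts are not read as particular to the members. How the counting used strand is not given in the sources used here, so reads of such partners may not be told apart. Several members share a partner: ENSG00000287405 and ENSG00000286307 lie antisense to HDAC4, ENSG00000287818 and ENSG00000287258 to PKIB, ENSG00000279459 and SHANK2-AS1 to SHANK2, and ELOA3DP and ELOA3CP to KATNAL2. The partners themselves, named after their values were seen, were not members, and from 0 h to 4 h HDAC4 went from 48.3 to 88.9 CPM, PKIB from 56.7 to 46.15 CPM, SHANK2 from 114.5 to 148 CPM and KATNAL2 from 5.04 to 8.67 CPM. ENSG00000206028 lies antisense to MIAT, and both are members. FAM156B, which has the near-identical copy FAM156A, had 8.002, 17.03, 1.69, 16.7 and 6.004 CPM from 0 to 300 nM LDN, out of order with dose, and its level is uncertain.

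Promoters were taken from RefSeq (GRCh38.p14), which gave the 300 bases around the start site, 250 before it and 50 after, for 55 of the 126 genes through their Entrez identifiers. They were searched on both strands for GGCGCC, a GC-rich element that SMAD1 and SMAD5 are known to bind. It was found in 18 of the 55 (32.7%), in 7 of the 19 that fell with LDN (36.8%), in 31.2% of the 11399 promoters of genes the rule was applied to and in 23.8% of all 17782 in the table. The shares of members and of all expressed genes were therefore close. The SMAD palindrome GTCTAGAC was in none of the 55, in 0.167% of the promoters of genes the rule was applied to and in 0.225% of all. In that order, the E-box CACGTG was in 7.27%, 9.99% and 8.48%, the AP-1 site TGANTCA in 5.45%, 4.31% and 6.49%, the cyclic AMP response element TGACGTCA in 1.82%, 3.31% and 2.49%, and TATAAA in 7.27%, 5.57% and 9.94%, with at most 4 of the 55 for any of these. Except for TATAAA these motifs read the same on both strands, and none of them contains another.

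The 250 bases before the start site are shown for the 4 of the 8 strongest falls that the table holds, 5′ to 3′ on the strand of the gene, with GGCGCC in capitals, to set promoters of like response side by side. FGF4, EMILIN3 and both noncoding RNAs had no entry.
CFC1 (chr2:130599576-130599825, minus strand): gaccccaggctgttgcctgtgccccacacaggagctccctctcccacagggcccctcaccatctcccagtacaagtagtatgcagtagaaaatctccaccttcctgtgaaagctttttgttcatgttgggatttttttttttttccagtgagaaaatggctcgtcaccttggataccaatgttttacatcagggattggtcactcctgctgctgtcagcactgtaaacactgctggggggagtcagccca
INHBB (chr2:120345886-120346135, plus strand): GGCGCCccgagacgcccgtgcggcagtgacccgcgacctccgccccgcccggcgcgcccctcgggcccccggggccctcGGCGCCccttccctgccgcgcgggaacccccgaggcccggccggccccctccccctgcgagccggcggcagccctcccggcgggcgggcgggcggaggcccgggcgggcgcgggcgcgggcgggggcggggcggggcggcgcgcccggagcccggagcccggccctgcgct
SLC24A4 (chr14:92322331-92322580, plus strand): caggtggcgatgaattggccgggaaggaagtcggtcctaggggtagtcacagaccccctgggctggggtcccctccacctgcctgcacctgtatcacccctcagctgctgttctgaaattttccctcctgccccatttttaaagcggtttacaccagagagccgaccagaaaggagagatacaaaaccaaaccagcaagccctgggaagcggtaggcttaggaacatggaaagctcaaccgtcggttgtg
HHEX (chr10:92689705-92689954, plus strand): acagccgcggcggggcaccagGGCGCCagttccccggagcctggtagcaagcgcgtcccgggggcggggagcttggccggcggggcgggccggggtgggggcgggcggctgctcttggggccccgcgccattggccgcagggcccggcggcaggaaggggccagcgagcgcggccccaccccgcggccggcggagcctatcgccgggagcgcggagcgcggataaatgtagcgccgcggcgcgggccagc
INHBB holds GGCGCC 250 and 171 bases before the start site and again 28 bases after it, and HHEX holds it 229 bases before. CFC1 and SLC24A4 do not have these letters in the 300 bases. The 4 promoters differ in GC content as well, with 51.7% and 57.0% of the 300 bases in CFC1 and SLC24A4 and 88.7% and 80.3% in INHBB and HHEX. The 4 genes thus fell with LDN with and without the motif in this window.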

How the data were processed

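RNA sequencing covered 13 libraries, 7 of the time series and 6 of the dose response. The authors trimmed reads with Cutadapt, used STAR 2.7.8a for alignment to GRCh38 and RSEM 1.3.3 for gene levels, and they deposited expected counts (estimated counts, rounded here to whole numbers) and FPKM values per gene. The ENSEMBL release and the use of strand are not given in the sources used here. FPKM was used only as an alternative.

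CPM was computed on library totals, from 15600931 to 71333471 counts, and the members were found by the rule in the report. The LDN trend was fitted with edgeR 4.0.16 (TMM, quasi-likelihood, Benjamini-Hochberg, adjusted p threshold 0.05) over LDN steps 0 to 4 in the 5 libraries with BMP4, for genes averaging 1 CPM or more there. Its only error is the scatter about the line, since no dose was repeated. Ratios to untreated add 0.1 CPM and have no test. Counting intervals are exact, at 95%. The trend was also run on simulated counts of 14810 genes, 200 of them changed, where it found 194 of the 200 and made 21 false calls. The slopes given to these 200 were all steeper than the median of the 67 tested members (−0.13). The share found thus does not apply to slopes as shallow as that median. Positions come from GENCODE 44 and promoters from RefSeq (GRCh38.p14), with R 4.3.3 and Python 3.11.15.

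The genes named are the 10 sharpest pulses with at least 5 CPM at 4 h, the 8 largest falls with LDN and the members that rose, members on the pathway lists, and the 3 untested members highest at 4 h. Others are said to be chosen after their values were seen. The members and the 19 gene lists were chosen with earlier results of these data known. Alternatives were other scalings, DESeq2 1.42.0, other minimums, dose scales and thresholds, FPKM, and leaving out single libraries.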

Additional observations from a re-analysis of the deposited data

How the results depend on the processing

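The number of genes that met the rule was 53 with a minimum of 2.5 CPM, 2884 with no minimum, 54 with 1 CPM added to every level and 23 with 3 times 0 h and 2 times the later times required. It was 85 with TMM or with DESeq2 size factors, 125 with FPKM (97 of them among the 126), 100 to 162 with a 0 h replicate left out, and 97 with medians set to 0 in 20 bins of GC content, an alternative chosen after seeing the data. The number of members that fell with LDN stayed between 23 and 37 under all alternatives run, and between 23 and 30 with 1 library left out. The number tested varied too, so the share that fell was less stable than the count. It was 37 of 126 with no filter on low counts and 24 of 41 with a minimum of 2.5 CPM in the dose response, against 29 of 67 in the main fit. The shares over all genes under these alternatives are not given here. Among genes of the rule with TMM factors 21 of 43 tested (48.8%) fell, with a minimum of 2.5 CPM 26 of 48 (54.2%), and without 0 h replicate 1 or 2, 32 of 77 (41.6%) and 26 of 62 (41.9%). The number that rose was 2 with log10 of dose and 0 with the untreated library added as a step (edgeR's quasi-likelihood test, 2 at an unadjusted p under 0.05, and 1 by DESeq2 on the 5 doses), and it ranged from 0 to 2 with 1 library left out. The number at least 2-fold above untreated was 21 to 26. Of 292 comparisons of slopes of 25 named genes, 264 kept their direction and call, 15 lost the call, 6 gained one and 7 changed direction, with no call before or after. With the untreated library added the slope was 0.0107 for TMEM151A and −0.0726 for ENSG00000249240. The other 5 changed direction without the library at 300 nM: with 1 library left out the slopes ranged from −0.106 to 0.163 for ZNF469, −0.0826 to 0.107 for RNF128, −0.169 to 0.00978 for FZD8, −0.200 to 0.0395 for C1QL2 and −0.130 to 0.0215 for PDE4B. JAG2 and ELFN1 had no call by DESeq2 (adjusted p = 0.0657 and 0.126). The causes of these changes were not tested. No paired analysis was possible because only 0 h had more than 1 library.

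The dose response covers only part of the members: 59 of the 126 genes were under 1 CPM there and were not tested in the main fit. Each dose and each time after 0 h is 1 library, so culture, library and condition cannot be told apart at any single point.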
